A study of Arabidopsis thaliana with 9 samples.

Results

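The loci described here are 56 Arabidopsis thaliana loci that were inserted between older gene models and that the array measures as several transcript versions. A locus was taken where its AGI name (the letters AT, the chromosome, G and 5 digits) ends in a digit other than 0 and where its probes name 2 or more version suffixes, as in AT4G08035.1 and AT4G08035.2. AT3G25795 and AT3G29644 were left out by the rule. The 56 loci were among 405 loci with an AGI name on the array and 317 inserted loci, 257 of which had 1 version. They held 128 versions measured by 384 probes, 3 for each version: 43 loci had 2 versions, 11 had 3, AT1G24825 had 4 and AT4G06701 had 5. The rule reads names and uses no measured value.

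Total RNA came from seedlings 2 weeks old, grown on solid medium under long days, in 3 genotypes. The labels call the 3 samples of a genotype biological replicates. The genotypes were the Col-0 wild type (WT), the single mutant se-2 and the double mutant cbp20 cbp80, whose alleles at CBP20 and CBP80 the labels do not name. Each sample was labelled with Cy3 and hybridised to an Agilent array of 15013 probes for 5154 transcripts, at 1 array per sample. The array had no probe named for SERRATE, CBP20 or CBP80, so the mutated genes could not be checked. Of 13 marker genes of leaf, root, flower and seed, 2 had probes, both of them seed genes, so the tissue could not be checked against leaf or root markers.

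SERRATE is a nuclear protein that partners the nuclease DCL1 when microRNA precursors are cut. CBP20 and CBP80 form the complex that binds the cap of nascent transcripts in the nucleus. SERRATE and the cap-binding complex are both also known to affect splicing of plant pre-mRNAs, including the choice of splice sites. A long noncoding RNA locus can give several transcript versions through alternative splicing, alternative starts or alternative ends, and versions that share exons can also share probe targets. In the reference annotation, 38 of the loci were long noncoding RNA genes, 16 were other noncoding RNA genes, AT1G20065 was a protein-coding gene and AT1G24825 was not listed. A protein-coding gene was overlapped by 41 of the loci, and 14 overlapped none. None of the loci had a symbol of its own, and none was among 13 described noncoding RNAs (such as TAS1C, a source of trans-acting small RNAs, and IPS1, a target mimic), of which 3 were on the array.

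Nearly all of the versions gave a signal in these seedlings. A version was represented by its brightest probe and was tested where, in at least 1 genotype, all 3 arrays read that probe well above background. This held for 126 of the 128 versions (98.4%), on 55 loci, against 33.4% of all transcripts on the array and 84.4% of the inserted transcripts with 1 version. On all 9 arrays, 121 versions were well above background. The exception was AT5G40348, which overlaps MYB24, a gene for a MYB transcription factor of flowers: 1 WT array read its version 1 well above background and no array its version 2, so neither was tested.

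Values below are log2 signals after each array was scaled to its 75th percentile over 1835 probes, so 0 is that percentile and not an absence of signal. Levels of different probes are not comparable as amounts of RNA. The 3 WT arrays lay on 3 slides and the 6 mutant arrays shared another, so a difference between a mutant and WT is also a difference between slides, and the 2 cannot be told apart. The median SD of the versions was 0.310 among WT arrays, 0.0462 among se-2 arrays and 0.0589 among cbp20 cbp80 arrays. Limma pools this spread over the genotypes, so errors and p-values against WT can be too small. For this reason counts with a random effect of the slide (the slide as a block) stand beside the others; it allows for spread between slides but does not separate the slide of the mutants from their genotype. The number of arrays limits the precision, and between 14.6% and 24.7% of all probes were well above background on an array. Errors after ± are standard errors from limma, with n = 3 arrays in a genotype, and a version is called where its p, adjusted by Benjamini-Hochberg over all 3103 tested probes of the array, was under 0.05. A call of a version, and of a pair of versions, thus rests on the brightest probe of each.

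In se-2, 53 of the 126 versions (42.1%) differed from WT, which is near the 37.6% of all 1724 tested transcripts. Of these versions 16 rose, where 18.2% of all transcripts rose, and 37 fell, where 19.5% fell. In cbp20 cbp80, 49 versions (38.9%) differed from WT, again near the 38.4% of all transcripts. Here 25 versions rose, against 24.4% of all transcripts, and 24 fell, against 14.0%. The inserted transcripts with 1 version were called in 38.7% of cases in se-2 and in 39.2% of cases in cbp20 cbp80. With the slide as a block, 1 version stayed called in each mutant, in both AT4G08035.1, where the same fit called 6.79% of all transcripts in se-2 and 5.57% in cbp20 cbp80. Both comparisons share the WT arrays.

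The balance of rises and falls depended on the scaling. The median change over all tested transcripts in se-2 was 0.01, and became 0.96 with the percentile taken over all probes, 0.25 with quantile normalization and -0.77 with normexp background correction. Under these settings the versions split into 80 higher and 1 lower, 18 higher and 33 lower, and 15 higher and 60 lower. All 1724 tested transcripts split there into 933 called higher and 85 lower, 442 and 291, and 149 and 1278. With median scaling the versions split into 15 and 40, and with the values that the authors normalized into 18 and 24. All transcripts split into 290 and 390, and into 442 and 277. In cbp20 cbp80 the median over all transcripts was 0.26, and 0.86, 0.22 and -0.28 under the first 3 of these settings. The versions there split into 63 higher and 5 lower, 22 and 27, and 17 and 27, and with median scaling into 17 and 44. All transcripts split into 840 and 112, 423 and 278, and 155 and 423, and with median scaling into 325 and 361. The median of the versions minus that of all transcripts was -0.19 in se-2 and -0.26 in cbp20 cbp80, but 0.47 and 0.18 with normexp. Leaving out a replicate of se-2 left 30 to 33 versions called in se-2 (32 without replicate 1, 30 without replicate 2, 33 without replicate 3), and leaving out a replicate of cbp20 cbp80 left 28 to 31 called there (31, 28 and 29). In these fits 3 arrays are compared with 2, and the share over all transcripts is not given.

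**Figure D1:**
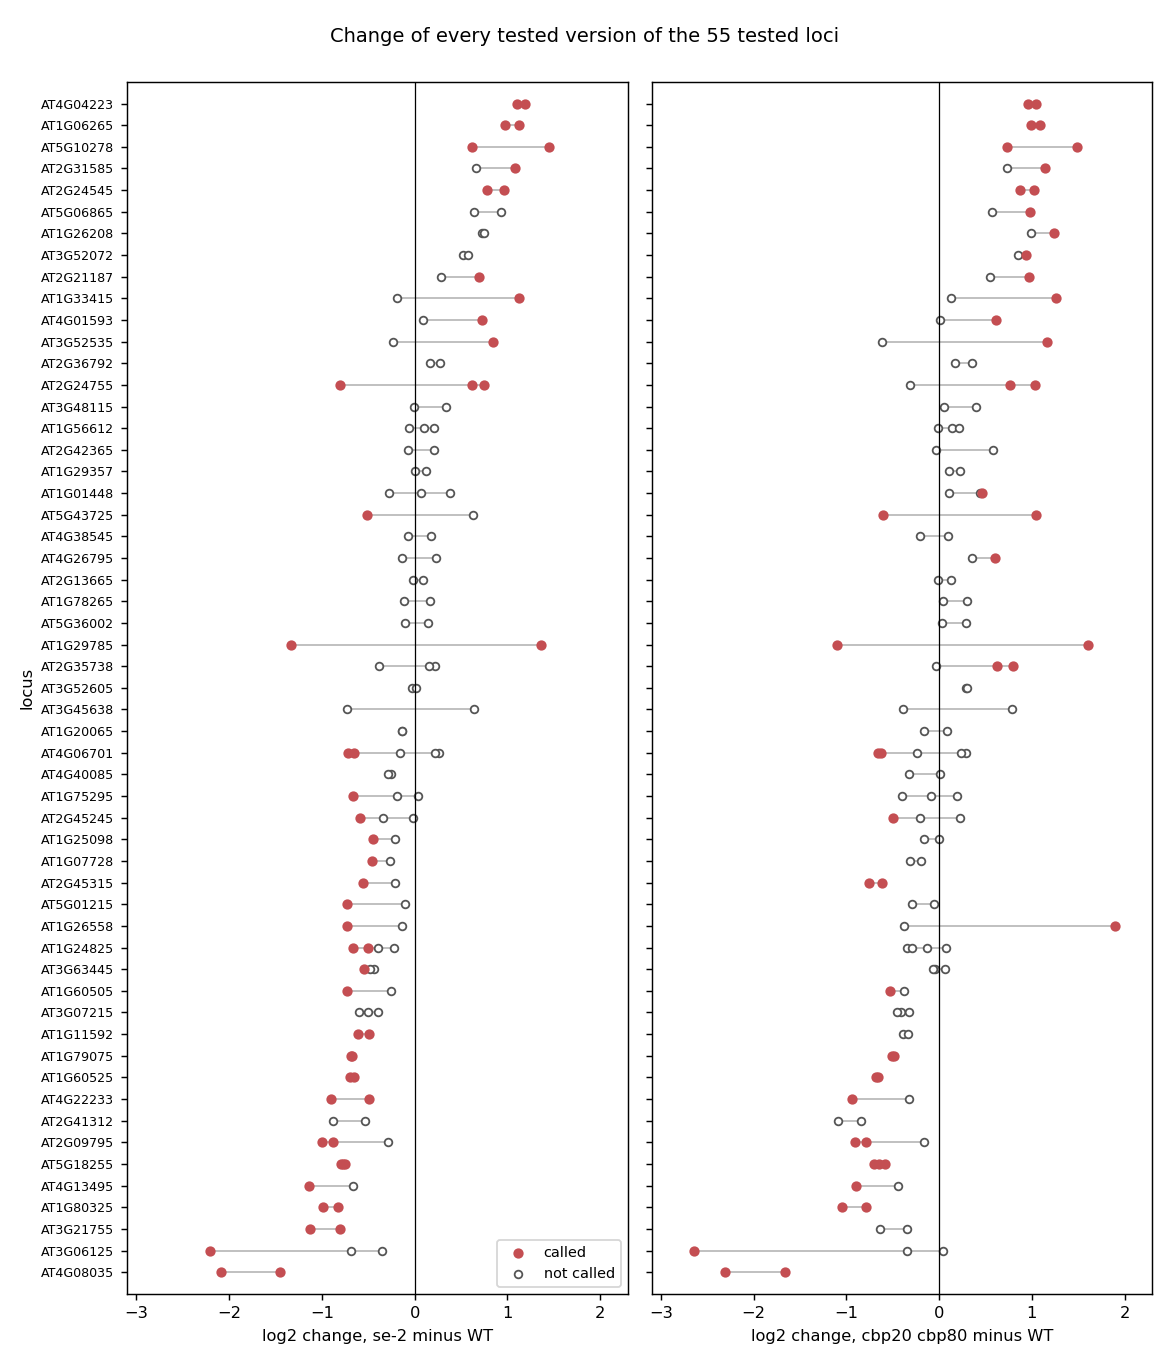
Log2 change of each tested version against WT, for se-2 (left) and cbp20 cbp80 (right), with loci in rows in the order of their mean change in se-2. A grey line joins the versions of a locus, red points were called by limma and open points were not; AT4G08035 lies lowest and AT1G29785 has called versions on both sides of 0 in both panels.

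At 12 loci all versions moved the same way in se-2. All versions rose at 4 loci, fell at 8 loci, and at 20 further loci some versions but not all were called in 1 direction. At 2 loci versions were called in opposite directions, and at 21 loci no version was called. In cbp20 cbp80 all versions rose at 4 loci and fell at 6, some were called in 1 direction at 20, versions were called in opposite directions at 2, and none was called at 23. The loci whose versions all rose in se-2 were AT4G04223, AT5G10278, AT1G06265 and AT2G24545, and their values in cbp20 cbp80, against the same WT arrays, are given beside them.

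AT4G08035, a noncoding locus whose neighbours on both sides are pseudogenes, fell in both mutants in both of its versions. AT4G08035.1 read 3.26, 2.69 and 2.96 in WT, 0.88, 0.88 and 0.89 in se-2 and 0.67, 0.66 and 0.65 in cbp20 cbp80. Every mutant array lay below every WT array. The version fell by 2.09 ± 0.17 in se-2 (4.25-fold, limma's adjusted p = 3.58e-05) and fell by 2.31 ± 0.17 in cbp20 cbp80 (4.97-fold, adjusted p = 2.39e-05). With the slide as a block the adjusted p was 0.00768 in se-2 and 0.00674 in cbp20 cbp80. AT4G08035.2 read 1.41, 1.82 and 1.26 in WT, 0.11, -0.10 and 0.12 in se-2 and -0.15, -0.06 and -0.28 in cbp20 cbp80, again without overlap. It fell by 1.46 ± 0.18 and by 1.66 ± 0.18, with limma's adjusted p of 0.000414 and 0.000234, and was not called with the slide as a block (0.191 and 0.144). All 3 probes of each version fell in both mutants.

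**Figure D2:**
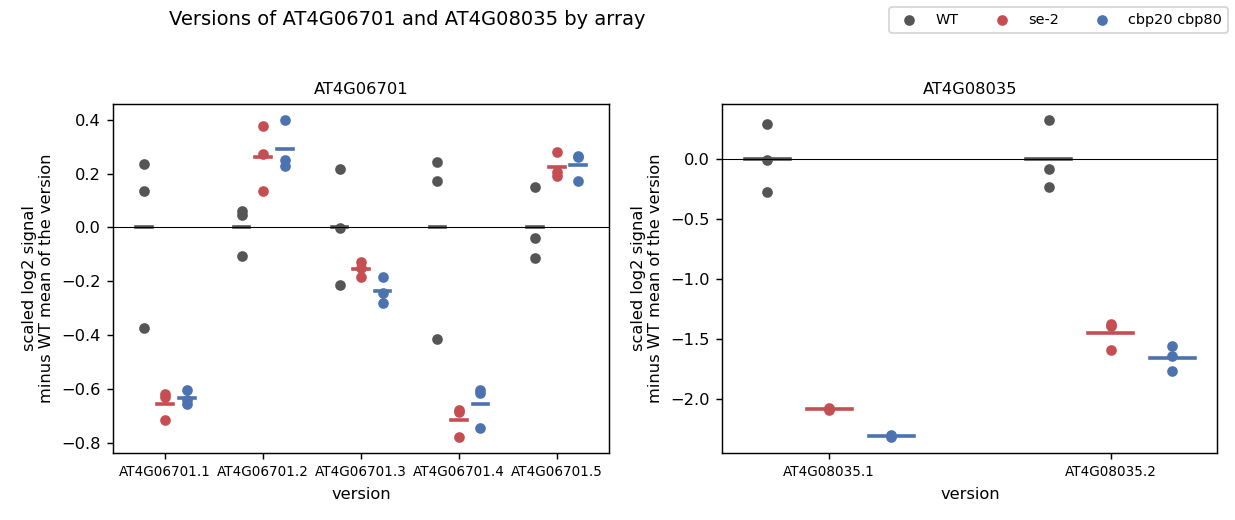
Scaled log2 signal of the brightest probe of each version on each array, minus its WT mean, for the 5 versions of AT4G06701 (left) and the 2 versions of AT4G08035 (right). Points are arrays and short bars are means of 3 arrays; versions 1 and 4 of AT4G06701 lie below WT in both mutants while versions 2 and 5 lie above its mean, and both versions of AT4G08035 lie far below WT.

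The loci that rose in all versions lie in different settings. AT5G10278 overlaps MYB92, a gene for a MYB transcription factor linked to suberin. Its version 2 read -3.47, -4.0 and -3.99 in WT, -2.39, -2.39 and -2.32 in se-2 and -2.39, -2.34 and -2.26 in cbp20 cbp80, so that all mutant arrays lay above all WT arrays. It rose by 1.45 ± 0.18 in se-2 (2.74-fold, limma's adjusted p = 0.000352) and by 1.49 ± 0.18 in cbp20 cbp80 (2.80-fold, adjusted p = 0.000356). With normexp the changes were 0.08 and 0.31 and the calls were lost. By its brightest probe version 1 rose by 0.62 ± 0.21 and 0.73 ± 0.21, and the difference between the brightest probes of the versions changed by 0.83 in se-2 (95% interval 0.51 to 1.16, limma's adjusted p over the version pairs = 0.00193, 0.0903 with the slide as a block). The other probes did not show this order: those of version 1 rose by 1.62 and 1.76 in se-2, and those of version 2 changed by 1.38, which was called, and 0.75, which was not.

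AT4G04223, next to a long noncoding RNA gene and a pseudogene, read 2.73, 2.82 and 2.50 for version 2 in WT, 3.90, 3.84 and 3.88 in se-2 and 3.74, 3.79 and 3.68 in cbp20 cbp80. The groups of WT and mutant arrays did not overlap. Version 2 rose by 1.19 ± 0.14 in se-2 and 1.05 ± 0.14 in cbp20 cbp80, with limma's adjusted p of 0.000326 and 0.000711. Version 1 rose by 1.1 ± 0.16 and 0.96 ± 0.16 by its brightest probe, while 1 of its other probes fell in se-2, by 0.57.

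AT1G06265.1 rose by 1.13 ± 0.24 in se-2 and 1.09 ± 0.24 in cbp20 cbp80, and its version 2 by 0.98 ± 0.19 and 1.0 ± 0.19. The WT arrays of AT1G06265.1 read -0.70, 0.04 and -0.96, and the mutant arrays lay between 0.46 and 0.62. AT2G24545 overlaps AFR, which encodes an F-box protein of far-red light responses. Its versions 1 and 2 rose by 0.97 ± 0.21 and 0.78 ± 0.16 in se-2 and by 1.03 ± 0.21 and 0.87 ± 0.16 in cbp20 cbp80. No version of AT5G10278, AT4G04223, AT1G06265 or AT2G24545 was called with the slide as a block.

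Among the loci whose versions fell together, AT1G80325 spans several protein-coding genes, including NTT1, for a plastid nucleotide transporter, and GA3OX4, for a gibberellin 3-oxidase. Its version 2 read -1.54, -1.64 and -1.31 in WT, -2.56, -2.55 and -2.33 in se-2 and -2.57, -2.53 and -2.55 in cbp20 cbp80. It fell by 0.98 ± 0.15 and 1.05 ± 0.15 (limma's adjusted p = 0.00132 and 0.000967), and version 1 fell by 0.83 ± 0.19 and 0.79 ± 0.19. AT5G18255 fell in all of its 3 versions in both mutants, by 0.75 to 0.79 in se-2 and by 0.58 to 0.70 in cbp20 cbp80, and each of its 9 probes was called lower in both. AT1G79075, with version 1 at 5.24 ± 0.157 (SD, n = 3) in WT, fell by 0.67 ± 0.14 and 0.68 ± 0.16 in its versions 1 and 2 in se-2 and by 0.51 and 0.49 in cbp20 cbp80. Falls smaller than the shift of the median given above, from 0.01 to 0.96 in se-2, change sign when the percentile is taken over all probes.

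AT3G21755 overlaps UGT71B1 and HYR1, genes for glycosyltransferases. Both of its versions fell in se-2 against WT, and neither was called in cbp20 cbp80 by its brightest probe. The 3 probes of version 1 changed by -0.66 to -0.63 in cbp20 cbp80, and 1 of them was called (limma's adjusted p = 0.0228). AT3G21755.1 read -0.27, -1.33 and -1.59 in WT, -2.25, -2.11 and -2.21 in se-2 and -1.67, -1.76 and -1.69 in cbp20 cbp80. WT replicate 1 stood apart from the other arrays. The version fell by 1.13 ± 0.31 in se-2 (limma's adjusted p = 0.0196), and the call was lost without any 1 replicate of se-2, where the adjusted p was 0.0635, 0.0521 and 0.0603. The call was also lost with the percentile over all probes (-0.18, adjusted p = 0.658), the slide as a block (0.339) or only the 6 arrays compared (0.0624). Between the mutants, within their slide, the version was lower in se-2 by 0.49 ± 0.06 (1.40-fold, limma's adjusted p = 0.00158). This difference was -0.14 and not called with the percentile over all probes (adjusted p = 0.255), and it was not called with all 9 arrays in 1 fit (0.465).

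AT4G22233.2 fell by 0.90 ± 0.15 in se-2 and by 0.94 ± 0.15 in cbp20 cbp80 (limma's adjusted p = 0.00173 and 0.00145), while version 1 fell by 0.49 ± 0.14 in se-2 and changed by -0.32 ± 0.14 in cbp20 cbp80, where it was not called. The difference between its versions changed by -0.41 in se-2 and -0.62 in cbp20 cbp80, with limma's adjusted p over the version pairs of 0.00704 and 0.000946, and neither change was called with the slide as a block (0.447 and 0.187). At AT1G25098, among the 5 loci brightest in WT, version 1 fell by 0.44 in se-2 by its brightest probe (limma's adjusted p = 0.0326). Its other probes, at -0.05 and -0.47, were not called, nor was version 2, at -0.21. Neither version was called in cbp20 cbp80, at -0.17 and 0.00. Between the mutants they changed by -0.28 and -0.21, near the median of all transcripts there (-0.21).

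Whether versions of a locus responded unequally was tested on the log2 difference between versions on the same array, later minus earlier suffix, in which the scaling of the array cancels. Of 91 version pairs, 39 (42.9%), on 26 loci, changed in se-2, where 43.0% of the 93 version pairs of all loci were called. These 91 pairs are themselves most of the 93, so the share over all version pairs, here and below, is no separate background. In cbp20 cbp80 38 pairs (41.8%), on 26 loci, changed, against 41.9% of all version pairs. The same test on the 2 brightest probes of 1 transcript, over 832 transcripts, called 18.3% in se-2 and 17.5% in cbp20 cbp80. Among the versions described here these probe pairs of 1 version were called in 23 of 124 cases (18.5%) in se-2 and in 21 of 124 (16.9%) in cbp20 cbp80. Fitted in 1 model with the probe pairs, 28 of the version pairs (30.8%) were called in se-2 against 19.4% of the probe pairs, and 31 (34.1%) in cbp20 cbp80 against 20.1%. Of the 124 probe pairs of the versions described here, this model called 24 (19.4%) in se-2 and 29 (23.4%) in cbp20 cbp80. With the slide as a block, 5 version pairs in se-2 and 6 in cbp20 cbp80 were called, where the same fit called 5.38% and 6.45% of all version pairs and 0.240% and 0.120% of the probe pairs.

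The larger changes set version pairs apart more than the typical change did. The median size of the change was 0.29 for version pairs and 0.23 for probe pairs of 1 version in se-2, and 0.27 and 0.22 in cbp20 cbp80. The 90th percentile was 0.98 for version pairs against 0.60 for probe pairs in se-2, and 1.08 against 0.68 in cbp20 cbp80. Probes of 1 version thus also changed unequally. The probe sequences, which would show what each probe covers, were not used here.

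At AT1G29785 the versions were called in opposite directions in both mutants. It overlaps 2 protein-coding genes without a symbol. AT1G29785.1 read 3.09, 2.55 and 3.02 in WT, 1.56, 1.52 and 1.57 in se-2 and 1.77, 1.82 and 1.75 in cbp20 cbp80. AT1G29785.2 read -5.99, -6.30 and -4.70 in WT, -4.28, -4.23 and -4.40 in se-2 and -4.13, -3.97 and -4.07 in cbp20 cbp80. Version 1 was lower and version 2 higher on every mutant array than on every WT array. Version 1 fell by 1.33 ± 0.17 in se-2 and by 1.1 ± 0.17 in cbp20 cbp80 (limma's adjusted p = 0.000502 and 0.00143), and version 2 rose by 1.36 ± 0.37 and 1.60 ± 0.37 (0.0184 and 0.00933). The difference between them changed by 2.69 in se-2 (95% interval 2.01 to 3.38, limma's adjusted p = 0.000368, 0.0282 with the slide as a block) and by 2.71 in cbp20 cbp80 (2.02 to 3.40, 0.000286, 0.0136). All 3 probes of version 1 fell and both tested probes of version 2 rose in both mutants. Version 2 was well above background on 1 of 3 WT arrays. It met the filter for testing only through the mutants, where it was higher, so its rise is not independent of the filter. With normexp its changes reversed to -0.50 and -0.04, and its call in se-2 was lost without WT replicate 1 (1.19, limma's adjusted p = 0.0557), se-2 replicate 1 (1.35, 0.0566) or se-2 replicate 2 (1.32, 0.0602).

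**Figure D3:**
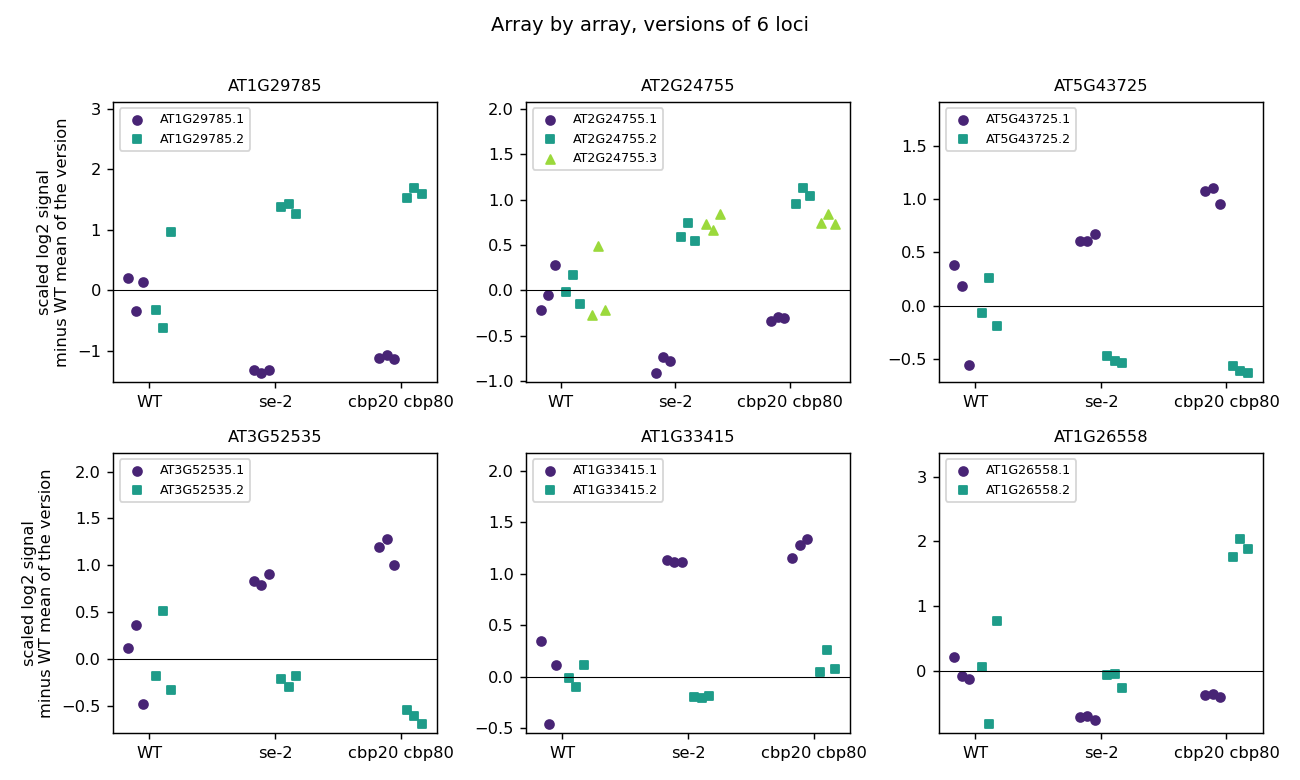
Scaled log2 signal of each array minus the WT mean of the version, for 6 loci whose versions changed unequally. Each symbol is 1 array and each marker shape 1 version; at AT1G29785 version 1 lies below and version 2 above the WT arrays in both mutants, and at AT1G26558 version 2 lies above them in cbp20 cbp80 alone among the mutants.

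At AT2G24755, a locus among pseudogenes with 3 versions, version 1 fell in se-2 while the other versions rose. AT2G24755.1 read -0.84, -0.68 and -0.34 in WT, -1.53, -1.35 and -1.40 in se-2 and -0.96, -0.92 and -0.93 in cbp20 cbp80. AT2G24755.2 read -3.51, -3.33 and -3.64 in WT, -2.91, -2.75 and -2.95 in se-2 and -2.54, -2.37 and -2.46 in cbp20 cbp80. All mutant arrays lay below WT for the first and above WT for the second. In se-2 version 1 fell by 0.81 ± 0.16, version 2 rose by 0.62 ± 0.15 and version 3 rose by 0.74 ± 0.22 (limma's adjusted p = 0.0053, 0.0111 and 0.0247). In cbp20 cbp80 version 1 changed by -0.32 ± 0.16 and was not called, and versions 2 and 3 rose by 1.04 ± 0.15 and 0.77 ± 0.22. The difference between versions 2 and 1 changed by 1.43 and 1.35, with limma's adjusted p of 0.0456 and 0.0428 with the slide as a block. By probe the agreement was uneven: the tested probes of version 1 changed by -0.81 and 0.08 in se-2, those of version 2 by 0.62 and -0.17, and all 3 of version 3 rose. The dimmer probe of version 1 rose in cbp20 cbp80, by 0.62 (limma's adjusted p = 0.0171).

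AT5G43725, which overlaps a protein-coding gene without a symbol, had opposite calls in cbp20 cbp80. AT5G43725.1 read -1.52, -1.72 and -2.46 in WT, -1.29, -1.30 and -1.23 in se-2 and -0.82, -0.79 and -0.95 in cbp20 cbp80. AT5G43725.2 read -0.94, -0.61 and -1.06 in WT, -1.35, -1.40 and -1.41 in se-2 and -1.45, -1.49 and -1.51 in cbp20 cbp80. Version 1 was thus higher and version 2 lower on all mutant arrays than in WT. Version 1 rose by 1.04 ± 0.24 in cbp20 cbp80 (limma's adjusted p = 0.00912) and changed by 0.63 ± 0.24 in se-2 (0.0666), while version 2 fell by 0.60 ± 0.16 and by 0.51 ± 0.16. The difference between them changed by -1.65 in cbp20 cbp80 (95% interval -2.06 to -1.24, limma's adjusted p = 0.0136 with the slide as a block) and by -1.14 in se-2 (-1.55 to -0.73, 0.0592 with the block). All 3 probes of version 1 rose in cbp20 cbp80, and the brightest probe of version 2 was the 1 of its 3 probes that was called.

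AT3G52535 overlaps OFP18, a gene of the OVATE family of transcriptional repressors. AT3G52535.1 read -0.84, -0.61 and -1.44 in WT, -0.14, -0.18 and -0.05 in se-2 and 0.24, 0.31 and 0.04 in cbp20 cbp80. AT3G52535.2 read 1.07, 1.75 and 0.92 in WT, 1.03, 0.94 and 1.07 in se-2 and 0.70, 0.64 and 0.55 in cbp20 cbp80. Version 1 was higher on all mutant arrays, and version 2 overlapped WT in se-2 and lay below it in cbp20 cbp80. Version 1 rose by 0.84 ± 0.22 and 1.16 ± 0.22 (limma's adjusted p = 0.0168 and 0.00415), and version 2 was called in neither mutant by its brightest probe (-0.23 ± 0.22 and -0.62 ± 0.22). The difference changed by -1.07 in se-2 and -1.77 in cbp20 cbp80, and both changes were called with the slide as a block (0.0456 and 0.00762). By probe, the third of version 2 was called lower in cbp20 cbp80 (-0.76, limma's adjusted p = 0.00385). The second probe of version 1 changed by 0.35 in se-2 and 0.73 in cbp20 cbp80 and was called in neither.

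At AT1G33415, which overlaps 2 protein-coding genes and follows SAR1, a nucleoporin gene, version 1 but not version 2 was called against WT. AT1G33415.1 read -3.73, -4.53 and -3.96 in WT, -2.94, -2.95 and -2.95 in se-2 and -2.92, -2.79 and -2.73 in cbp20 cbp80, above all WT arrays. It rose by 1.12 ± 0.21 and 1.25 ± 0.21 (limma's adjusted p = 0.00349 and 0.00211), as did each of its 3 probes, while version 2 changed by -0.19 ± 0.14 and 0.13 ± 0.14. The difference changed by -1.32 in se-2 (limma's adjusted p = 0.0456 with the slide as a block) and by -1.13 in cbp20 cbp80 (0.0725). With normexp the change of version 1 was -0.15 in se-2 and 0.17 in cbp20 cbp80, where the call was lost, and the difference in se-2 changed by -0.19 (adjusted p = 0.12). By probe, 1 of 3 probes of version 2 fell, by 1.15 in se-2 and 0.92 in cbp20 cbp80. At AT4G01593, which overlaps a protein-coding gene without a symbol, version 2 rose by 0.73 ± 0.15 and 0.62 ± 0.15 while version 1 changed by 0.09 ± 0.18 and 0.00 ± 0.18, and the change in their difference was called in both mutants with the slide as a block (0.0456 and 0.0428). This contrast rests on the brightest probes: the other probes of version 1 changed by 0.49, which was not called, and 0.48, which was, in se-2, and the third probe of version 2 rose there by 0.54.

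AT1G26558 lies next to BGLU40, a gene of the beta-glucosidase family. AT1G26558.2 read -3.93, -4.80 and -3.21 in WT, -4.04, -4.03 and -4.25 in se-2 and -2.22, -1.94 and -2.10 in cbp20 cbp80, which lay above all other arrays. It rose by 1.89 ± 0.35 in cbp20 cbp80 (3.71-fold, limma's adjusted p = 0.00365), changed by -0.13 ± 0.35 in se-2, and was 4.06-fold lower in se-2 than in cbp20 cbp80 (limma's adjusted p = 8.48e-05). This rise rested on the brightest of its 3 probes: the lowest of the 3 changes in cbp20 cbp80 was -0.13, and neither of its other probes was called against WT. Between the mutants the other probes were called lower in se-2, at -0.53 and -0.39, so the 4.06-fold is that of the brightest probe alone. AT1G26558.1 fell in se-2, from 5.37, 5.09 and 5.04 in WT to 4.45, 4.46 and 4.40, by 0.73 ± 0.14 (limma's adjusted p = 0.00425). The difference between the versions changed by 2.27 in cbp20 cbp80 (95% interval 1.49 to 3.05, adjusted p = 0.0428 with the slide as a block), and by 0.47 with normexp, where it was not called.

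AT3G06125 lies next to MUTE, a gene for a bHLH transcription factor of the stomatal lineage, and its version 1 was near background in the mutants. AT3G06125.1 read -3.37, -5.0 and -5.50 in WT, -6.94, -6.56 and -7.00 in se-2 and -7.77, -6.75 and -7.27 in cbp20 cbp80. It was well above background on 3 WT arrays, 1 se-2 array and no cbp20 cbp80 array, so only WT, where it was higher, admitted it to the test. It was at least 2.73-fold lower in cbp20 cbp80 (limma's adjusted p = 0.00468), a bound in which each dim array counts with its weakest detected signal, or with the probe's own signal where that is higher. In se-2, where 2 of the 3 arrays did not read it well above background, it fell by 2.21 ± 0.52 (limma's adjusted p = 0.0101), a call lost with quantile normalization (-1.68, 0.0652), array weights, the authors' value table or the percentile over all probes. Versions 2 and 3 were called in neither mutant against WT, with changes of -0.68 ± 0.25 and -0.36 ± 0.30 in se-2 and -0.35 ± 0.25 and 0.04 ± 0.30 in cbp20 cbp80. The difference between versions 3 and 1 changed by 1.85 and 2.68, values that rest on the dim probe of version 1, and neither was called with the slide as a block.

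At AT3G45638, next to the MAP kinase gene MPK3, no version was called against WT by its brightest probe. Version 2 was well above background on no WT array, so only mutant arrays admitted it to the test. The third probe of version 1 fell, by 1.21 in se-2 and 0.75 in cbp20 cbp80. The difference between its versions changed by 1.36 in se-2 (limma's adjusted p = 0.0128), reversed to -0.07 with normexp, and was not called without se-2 replicate 3 (1.15, 0.0501) or with the slide as a block (0.447). At AT1G26208, which overlaps SOFL1, version 2 rose by 1.23 ± 0.32 in cbp20 cbp80 (limma's adjusted p = 0.0158). The call was lost with no filter (0.0547), only the 6 arrays compared (0.0571), the authors' value table (0.0584), quantile normalization (0.0509), the slide as a block (0.334) and without cbp20 cbp80 replicate 2 (0.0537). Its WT arrays read -3.08, -2.81 and -1.71, and its cbp20 cbp80 arrays lay between -1.39 and -1.22. At AT2G31585, which overlaps no protein-coding gene, version 2 rose by 1.08 ± 0.30 in se-2 (limma's adjusted p = 0.0218), and without any 1 se-2 replicate the adjusted p was 0.0612 to 0.0672. Its WT arrays read 1.97, 2.41 and 1.06 and its se-2 arrays 2.93, 2.86 and 2.90.

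The locus with the most versions, AT4G06701, had versions that fell in both mutants beside versions that were not called. AT4G06701.1 read 0.25, -0.26 and 0.35 in WT, -0.60, -0.50 and -0.52 in se-2 and -0.49, -0.54 and -0.53 in cbp20 cbp80. AT4G06701.5 read -1.12, -0.85 and -1.04 in WT, -0.80, -0.81 and -0.72 in se-2 and -0.74, -0.83 and -0.74 in cbp20 cbp80. The mutant arrays lay below WT for version 1 and above it for version 5. Versions 1 and 4 fell in se-2, by 0.66 ± 0.18 and 0.71 ± 0.19 (limma's adjusted p = 0.0208 and 0.0193), and in cbp20 cbp80, by 0.63 ± 0.18 and 0.66 ± 0.19. Versions 2, 3 and 5 were not called, with changes of 0.26, -0.16 and 0.23 in se-2 and 0.29, -0.24 and 0.23 in cbp20 cbp80. The difference between versions 2 and 1 changed by 0.92 in each mutant (limma's adjusted p = 0.00298 and 0.00281), and that between versions 5 and 4 by 0.94 and 0.89 (0.00737 and 0.00777). None of these was called with the slide as a block (0.104 to 0.116), and both comparisons share the WT arrays. Between the mutants the difference between versions 2 and 1 changed by -0.01 (95% interval -0.15 to 0.13), and no pair of this locus was called. Its neighbours in the annotation are pseudogenes.

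Other loci with 3 or more versions also had versions with and without a call. AT1G24825.4 read 6.28, 6.36 and 6.20 in WT, 5.79, 5.74 and 5.80 in se-2 and 6.05, 5.98 and 5.92 in cbp20 cbp80. It fell by 0.50 ± 0.13 in se-2, and AT1G24825.2 by 0.66 ± 0.19, while versions 1 and 3 changed by -0.22 ± 0.13 and -0.39 ± 0.16 by their brightest probes and were not called. The other probes of version 1 were called in opposite directions: 1 fell by 0.69 (limma's adjusted p = 0.0086) and 1 rose by 2.45 (0.0289). At AT2G09795, among pseudogenes, versions 2 and 3 fell by 0.88 ± 0.21 and 1.0 ± 0.21 in se-2 (limma's adjusted p = 0.00995 and 0.00646) and version 1 changed by -0.29 ± 0.22. At AT2G45245 version 3 fell by 0.59 ± 0.14 in se-2 and versions 1 and 2 were not called, at -0.02 and -0.34. The other probes of version 3 changed by 0.11 and -0.29 in se-2 and were not called. At AT2G35738, which overlaps the inositol transporter gene INT3, versions 1 and 3 rose in cbp20 cbp80, by 0.80 ± 0.20 and 0.63 ± 0.19, and version 2 was not called, at -0.04 ± 0.18. The difference between its versions 2 and 1 changed by -0.84 there (limma's adjusted p = 0.000286, 0.0808 with the slide as a block). At AT1G75295 version 1 fell by 0.66 ± 0.19 in se-2 and its other versions were not called by their brightest probes. The third probe of version 3 was called lower in both mutants, at -0.61 in se-2 and -0.55 in cbp20 cbp80. At AT3G63445, which overlaps CKX6, a gene for a cytokinin oxidase, version 3 fell by 0.55 ± 0.19 in se-2 by its brightest probe. By theirs, versions 1 and 2 changed nearly as much, by -0.43 and -0.48, and were not called. Other probes were called lower there, at -0.89 for version 1 and at -0.68 and -0.68 for version 2. The other tested probe of version 3 was not called (-0.48). At AT1G01448 version 1 rose by 0.46 ± 0.15 in cbp20 cbp80 (limma's adjusted p = 0.0439) by its brightest probe. Its other probes changed there by -0.01 and -0.09 and were not called. No version of AT1G56612 or AT3G07215 was called in any comparison by its brightest probe, with changes between -0.06 and 0.21 for the first and between -0.60 and -0.33 for the second against WT. Each version of AT1G56612 had 1 other probe that rose, by 0.52, 0.53 and 0.67 in se-2 and by 0.46, 0.45 and 0.58 in cbp20 cbp80.

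AT4G13495 overlaps the microRNA genes MIR850, MIR863 and MIR5026. AT4G13495.1 read 4.38, 5.41 and 4.21 in WT, 3.56, 3.49 and 3.54 in se-2 and 3.78, 3.78 and 3.76 in cbp20 cbp80. AT4G13495.2 read 4.75, 5.73 and 4.39 in WT, 4.34, 4.25 and 4.28 in se-2 and 4.57, 4.49 and 4.47 in cbp20 cbp80. WT replicate 2 was the highest array for both versions. Version 1 fell by 1.13 ± 0.29 in se-2 (limma's adjusted p = 0.0148, and 0.0505 without se-2 replicate 2) and by 0.89 ± 0.29 in cbp20 cbp80 (0.039). With quantile normalization its change in se-2 was -0.63 and not called (adjusted p = 0.0624), and with the percentile over all probes it was -0.19. Version 2 was called in neither mutant (-0.66 ± 0.31 and -0.44 ± 0.31) by its brightest probe, while 1 of its other probes fell, by 1.38 and 1.1. The array also has probes for precursors of MIR850 and MIR863. The MIR850 precursor read -0.14, 0.67 and -0.21 in WT, -1.64, -1.65 and -1.67 in se-2 and -1.24, -1.14 and -1.20 in cbp20 cbp80. It fell by 1.76 ± 0.23 in se-2 and by 1.30 ± 0.23 in cbp20 cbp80 (limma's adjusted p = 0.000591 and 0.00301), and with the slide as a block the adjusted p was 0.0481 and 0.157. The MIR863 precursor was called in neither, with changes of -0.49 ± 0.30 and -0.07 ± 0.30. Both precursors were lower in se-2 than in cbp20 cbp80 within the slide of the mutants, by 0.46 ± 0.05 and 0.42 ± 0.07 (limma's adjusted p = 0.00096 and 0.00662). Versions 1 and 2 of AT4G13495 differed between the mutants by -0.24 ± 0.04 and -0.22 ± 0.05, close to the median of all transcripts in that comparison (-0.21).

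The mutants were compared with each other on the 6 arrays of their shared slide, so that neither the slides of WT nor its spread entered the fit. The WT arrays still had a part in the probes used for scaling, the filter for testing and the choice of the brightest probe. Here 53 of 126 versions (42.1%) were called, against 47.0% of all transcripts. Of these 5 were higher in se-2, where 11.4% of all transcripts were, and 48 were lower, where 35.6% were. This split depended on the scaling: the median over all transcripts was -0.21, and with median scaling 22 versions were higher and 19 lower, with quantile normalization 18 and 23, with normexp 8 and 73, with the percentile over all probes 56 and 1 and with the values that the authors normalized 20 and 18. In the same order, all transcripts split into 318 and 376, 343 and 301, 132 and 1431, 483 and 161, and 358 and 252. The median of the versions lay 0.08 above that of all transcripts, and 0.04 below it with quantile normalization (-0.04). With all 9 arrays in 1 fit, 1 version was called, where 5.57% of all transcripts were.

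Version pairs, whose scaling cancels, changed less between the mutants than against WT. Between the mutants 7 of 91 pairs (7.69%), on 6 loci, changed, where 7.53% of all version pairs and 4.09% of the probe pairs of 1 transcript were called. Among the probe pairs of the versions described here 2 of 124 were called. The median size of the change was 0.06 for version pairs and also for probe pairs, and the 90th percentiles were 0.33 and 0.28. With all 9 arrays in 1 fit 3 pairs were called, where 3.23% of all version pairs were, and fitted with the probe pairs 4 were. Without se-2 replicate 1, 3 pairs were called, and 4 without se-2 replicate 3.

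The called pairs between the mutants included loci described above. The difference between AT1G26558.2 and AT1G26558.1 was lower in se-2 by 1.67 (95% interval -1.86 to -1.48, limma's adjusted p = 3.43e-05). The size of this change rests on the brightest probe of version 2, at -2.02. The other probes of version 2 changed by -0.53 and -0.39, and those of version 1 by -0.35 and -0.16. At AT3G52535 version 1 was lower in se-2 than in cbp20 cbp80 by 0.32 ± 0.09 and version 2 higher by 0.38 ± 0.06 (limma's adjusted p = 0.0292 and 0.00451), the only opposite calls between the mutants, and the difference changed by 0.70 (0.56 to 0.84, adjusted p = 0.000532). The scaling of the array cancels in their difference but not in the single versions. At AT5G43725 the difference changed by 0.51 (0.38 to 0.64, limma's adjusted p = 0.00151), with version 1 lower in se-2 by 0.42 ± 0.06. At AT2G24755 the difference between versions 3 and 1 changed by 0.47 (0.29 to 0.65, limma's adjusted p = 0.0125), and was not called without se-2 replicate 1 (0.42, 0.0558) or replicate 3 (0.43, 0.0589).

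The smallest called differences between the mutants were at AT1G60505 and AT1G01448. At AT1G60505, which overlaps DRP4D, a pseudogene of the dynamin-related family, the difference changed by -0.33 (95% interval -0.48 to -0.17, limma's adjusted p = 0.0257), and it was not called without any 1 replicate of se-2 (adjusted p 0.0802 to 0.114). At AT1G01448 the difference between versions 3 and 1 changed by -0.31 and that between versions 2 and 1 by -0.30 (limma's adjusted p = 0.0145 and 0.0254). The first was not called without se-2 replicate 1 (-0.31, 0.0751) or replicate 2 (-0.28, 0.0642).

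**Figure D4:**
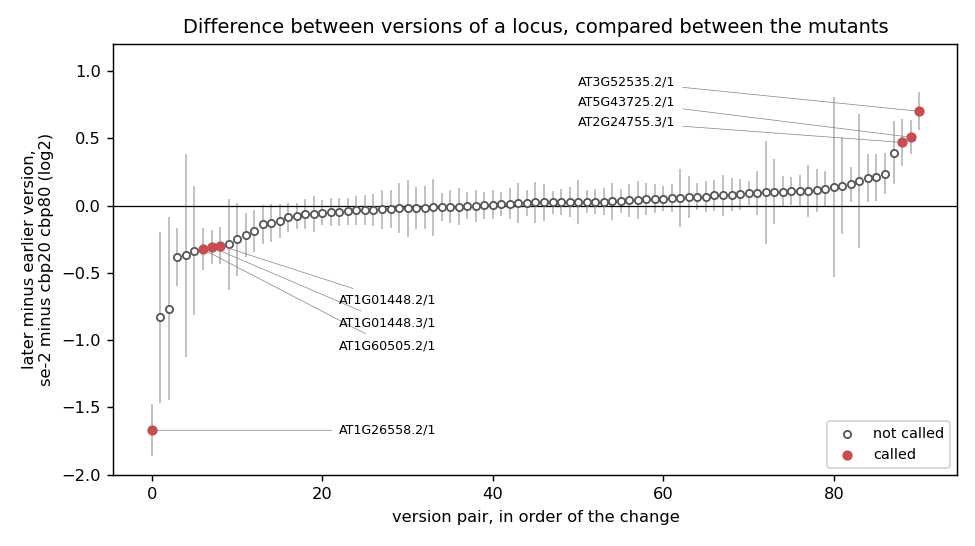
Change of the log2 difference between versions of a locus (later minus earlier suffix), se-2 minus cbp20 cbp80, for 91 version pairs in the order of the change. Bars are 95% intervals of limma's fit and the 7 called pairs are red. Most pairs lie close to 0, and AT1G26558 lies farthest from it at -1.67. The size of that change rests on the brightest probe of its version 2.

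Among single versions within the slide of the mutants, AT2G45315.2, which overlaps GAE4, a gene for a UDP-glucuronate epimerase, read -0.04, -0.10 and -0.01 in se-2 and -0.43, -0.44 and -0.50 in cbp20 cbp80. It was higher in se-2 by 0.41 ± 0.05 (limma's adjusted p = 0.00166). AT2G41312, next to RR3, a cytokinin response regulator gene, was the locus with all versions higher in se-2, by 0.21 ± 0.06 and 0.31 ± 0.05 (limma's adjusted p = 0.0255 and 0.00537). Its WT arrays ranged from -0.59 to 1.12 for version 1, with replicate 1 highest, and neither version was called against WT by its brightest probe. Another probe of version 1 fell, by 3.07 in se-2 and 2.62 in cbp20 cbp80 (limma's adjusted p = 0.00293 and 0.00662), and changed by -0.46 between the mutants, where it was not called. AT2G35738.1 read -2.74, -2.60 and -2.63 in se-2 and -2.14, -2.10 and -2.0 in cbp20 cbp80, and AT3G63445.1 read -1.88, -1.95 and -1.92 against -1.41, -1.43 and -1.42. They were lower in se-2 by 0.58 ± 0.06 and 0.49 ± 0.04 (limma's adjusted p = 0.00127 and 0.00054), and all 3 versions of both loci were called lower. The differences of AT2G35738.1 and AT3G63445.1 are smaller against the median of all transcripts, -0.21, and with the percentile over all probes they were -0.23 and -0.15 and not called (adjusted p = 0.0727 and 0.17).

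By annotation class, the loci that overlap no protein-coding gene had the lower medians against WT. Their 35 tested versions, on 14 loci, had a median change of -0.60 in se-2, with 5 higher and 13 lower. The 87 versions on the 40 tested loci that overlap a protein-coding gene had -0.06, with 11 higher and 22 lower. Versions of 1 locus are not independent of each other. In cbp20 cbp80 the medians were -0.38 (6 higher, 11 lower) and 0.08 (19 higher, 13 lower). Over all tested transcripts the medians were 0.01 and 0.26. Of these, 18.2% were called higher and 19.5% lower in se-2, and 24.4% and 14.0% in cbp20 cbp80. The difference between the classes was not tested. The strand of the probes and of the overlapping genes was not used here, so whether RNA of an overlapping gene reached the probes of a locus was not tested.

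Support from a version's other probes was counted. Of the called versions, 39 of 53 in se-2, 39 of 49 in cbp20 cbp80 and 44 of 53 between the mutants had a further probe called in the same direction, and 1, 0 and 0 had a probe called in the other direction. The 1 in se-2 was AT4G04223.1. Of the versions with 2 or more tested probes that were not called by the brightest, 26 of 71 in se-2, 24 of 75 in cbp20 cbp80 and 18 of 71 between the mutants had another probe called. Some probes assigned to different versions gave nearly the same readings: 55 of 751 such probe pairs (7.32%), on 26 loci, differed by at most 0.3 on the log2 scale on all 9 arrays, against 6 of 346 probe pairs of 1 version (1.73%). AT5G18255, with 7 such pairs, AT3G07215, with 6, and AT1G56612, with 5, had the most. At these loci the versions may not have been measured separately, and whether probes share a target was not tested.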

How the data were processed

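Each sample was 1 one-colour Agilent array. Per the file headers, the deposited signal intensity had been background-subtracted and detrended within each array by Agilent Feature Extraction, version 10.5.1.1 (WT replicates 1 and 2) or 10.7.3.1 (all others), with no normalization between arrays. The authors' deposited value table, in log2 units of unstated scale and centring, served as an alternative. The log2 signals were scaled to the 75th percentile of each array over 1835 probes well above background on all 9 arrays. No spot was saturated and no value of a brightest probe was missing. Genotypes were compared with limma 3.58.1 in R 4.3.3, and tables and plots used Python 3.11.15, pandas 2.3.3 and matplotlib 3.10.9. The fits were run on simulated data without an effect of the slide and, for single probes, with 1 spread for all genotypes. These simulations thus do not test the comparisons with WT under the unequal spread and the slides of these arrays. Replicate numbers did not pair the samples: their deviations correlated between -0.0483 and 0.0297. Named versions were those with the 6 largest called rises and falls without overlap in each comparison, the 6 largest changes in version pairs, opposite calls, calls with the slide as a block, loci with 3 or more versions and the 5 brightest loci in WT. A few others (AT2G24545, AT5G18255, AT4G22233.1 and AT4G01593.1, for example) were named after their values were seen. Members and lists were chosen with earlier results of these data known. Alternatives were other scalings, normexp on the median spot signal with an offset of 50, filters, blocks, array weights and leaving out each array. Gene names and overlaps came from RefSeq's TAIR10.1 table, which held 55 of the 56 loci.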

Additional observations from a re-analysis of the deposited data

How the results depend on the processing

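Against WT, 53 versions were called in se-2, and 81 with the percentile over all probes, 32 with array weights, 27 with only the 6 arrays compared, 1 with the slide as a block and 30 to 69 without 1 array. In cbp20 cbp80 49 were called, and 19 with no filter, where more probes were tested, 23 with only the 6 arrays compared, 1 with the slide as a block and 28 to 67 without 1 array. The 39 and 38 version pairs called became 5 and 6 with the slide as a block, and 26 to 52 and 32 to 50 without 1 array. Between the mutants the 53 versions became 81 with normexp, 25 with no filter, 1 with all 9 arrays in 1 fit and 39 to 49 without 1 array. The 7 pairs there became 22 with normexp, 11 with the mean of the probes of a version, 3 with all 9 arrays in 1 fit, 4 in the fit with the probe pairs, which was chosen after seeing the data, and 3 to 10 without 1 array. Except where given above, these counts have no share over all transcripts beside them, so they show nothing particular to these versions. With the replicate number as a block, 11 pairs were called, and none of the 53 named results lost its call; the numbers pair no samples. Of the values of named results under the settings other than leaving out 1 array, 479 kept direction and side of the threshold, 80 lost the call and 4 reversed. Those 4 were under normexp: AT1G29785.2 at -0.50 in se-2 and -0.0394 in cbp20 cbp80, AT1G33415.1 in se-2 at -0.15, and the difference between the versions of AT3G45638 in se-2 at -0.0682. Of the values without 1 array, 410 kept both and 19 lost the call. Of 37 named results against WT, 10 were called with the slide as a block. The causes were not tested. Low signal over background limits AT1G29785.2 (well above it on 1 WT array), AT3G06125.1 (1 se-2 and no cbp20 cbp80 array) and AT3G45638.2 (no WT array).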
